A study of Homo sapiens with 9 samples.

Results

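The libraries compared here come from HuH-7 cells, an established line from a human hepatocellular carcinoma, and bear on RNA levels where caffeine at 2 mM was added to acetaminophen at 10 mM. The library of cells given both drugs was set against the library of cells given acetaminophen at 10 mM alone, and every gene entered: 18237 of 63677 gene identifiers reached 1 CPM (counts per 1e+06 counts on genes, scaled by TMM between libraries) in at least 2 of the 9 libraries and were compared. The other 7 libraries of the series were untreated control cells, caffeine at 2 mM, exosomes (small vesicles) from 1 ml of serum, acetaminophen at 10 mM with those exosomes, and 3 arsenic treatments: 5 µM, 15 µM, and 5 µM joined by 5 µM copper. Each condition was 1 library of total RNA depleted of ribosomal RNA. For the exposure times, nothing is given in the sources used here. With 1 library a side, the pair has no replicate check and no p-value is given for it.

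Caffeine is a methylxanthine that blocks adenosine receptors, inhibits cyclic nucleotide phosphodiesterases at higher concentrations and releases calcium from internal stores through ryanodine receptors. Cyclic AMP in hepatocytes drives the fasting programme, with CREB acting on genes such as PCK1, PPARGC1A and the NR4A receptors. Caffeine is cleared in liver mainly by CYP1A2, while acetaminophen is glucuronidated and sulphated, and a smaller share is oxidised, chiefly by CYP2E1, to a quinone imine that depletes glutathione and engages the NRF2 and stress responses.

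The acetaminophen library held 1271896 counts on genes and the library with both drugs 5430432, within a range of 658725 to 8227906 over the 9 libraries. At these depths a level of 50 CPM rested on 71 counts in the acetaminophen library (95% interval 39.0 to 63.0 CPM) and on 265 in the library with both drugs (44.2 to 56.5 CPM), and 3 counts, the limit that a count of 0 allows, came to 2.11 and 0.567 CPM. All 11 hepatocyte markers were detected well enough to compare, with a summed level of 28911 CPM with acetaminophen and 18022 with both drugs, and ALB, the albumin gene, stood at 12644 and 3389 CPM. ALB made up most of that difference: the median log2 ratio of the 11 was 0.32, with 3 apart as higher and 1 as lower. Of the other markers, 6 of 8 fibroblast genes summed to 45.7 and 47.8 CPM, 2 of 5 endothelial genes to 11.3 and 1.51, 3 of 7 leukocyte genes to 272 and 90.9 (LYZ alone 272 and 88.4, PTPRC 0 and 0.378), and none of 5 erythroid and platelet genes was compared. In bulk RNA, fewer cells of a type and less RNA per cell cannot be told apart. The acetaminophen library differed from the one with both drugs in its composition: across genes its deviation from the mean of the 9 libraries had a correlation of -0.46 with transcript GC content, against 0.24 with both drugs and 0.04 with acetaminophen and exosomes, and small nucleolar RNAs took 11.7% of its counts against 6.97% with both drugs. Arsenic at 5 µM shared this, with a correlation of -0.37 and 36.1%. The part of these differences in the ratios below was not tested. Ratios were therefore read on 3 levels of strictness.

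A gene was counted as apart when its 2 scaled levels differed at least 2-fold and the 95% interval of the ratio left out 1. By this rule 6155 of the 18237 genes (33.8%) were apart, 3420 higher (18.8%) and 2735 lower (15.0%) with both drugs than with acetaminophen. Scaling to the total count in place of TMM turned that split to 2863 higher and 3349 lower. After each library's trend with GC content and transcript length was removed, 3555 of 17741 genes (20.0%) remained at least 2-fold apart in the same direction, 2155 higher (12.1%) and 1400 lower (7.89%). The strictest count also asked for the same difference from the library of acetaminophen with exosomes, the only other one that held acetaminophen without caffeine. It left 1191 genes (6.71%), 725 higher (4.09%) and 466 lower (2.63%). These shares over all genes are the background for every list count below. The median log2 ratio over all genes was -0.02, and 0.05 with the trend removed. Intervals cover counting error only, and reads without molecular identifiers are not independent molecules.

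**Figure D1:**
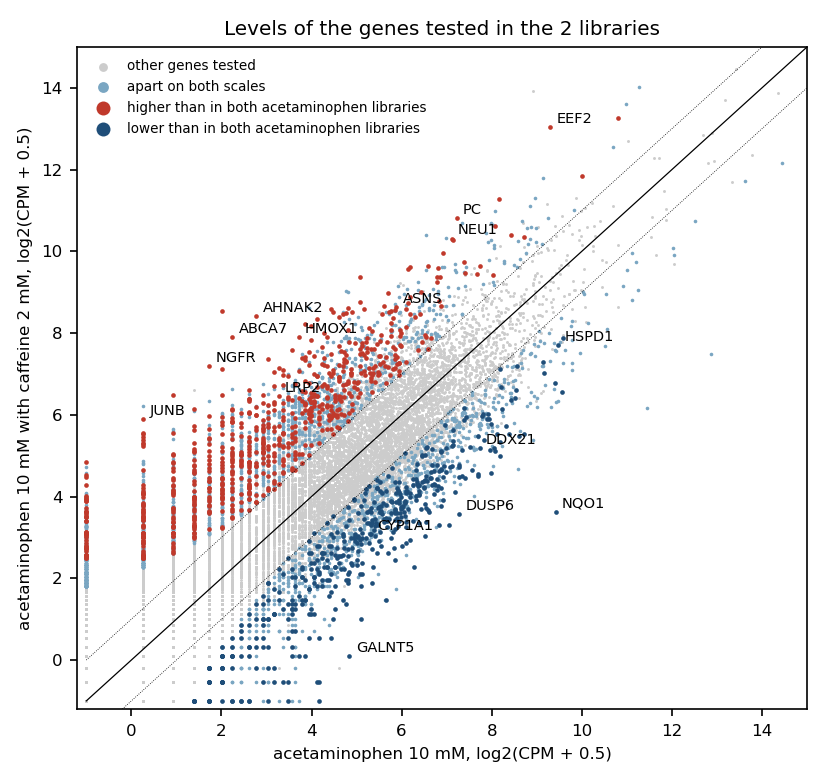
Level of each gene compared, as log2(CPM + 0.5), in the acetaminophen library (horizontal axis) and in the library of acetaminophen with caffeine (vertical axis), 1 point a gene, with a solid line of equal levels and dotted lines at a 2-fold difference. Genes apart from both acetaminophen libraries are red where higher (725) and dark blue where lower (466), with AHNAK2, ABCA7 and NGFR far above the line and NQO1 and DUSP6 far below it.

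The genes of the strictest count were ranked by the bound of the ratio's interval nearest to 1, as counted or with the trend removed, whichever was closer to 1. The 15 leading higher genes were not of 1 kind: they included a scaffold protein, which was first, a lipid transporter, a neurotrophin receptor, a lysosomal enzyme and a translation kinase. AHNAK2, a very large scaffold-like protein, stood at 0.968 CPM in control cells, 3.64 with caffeine, 6.33 with acetaminophen, 7.65 with acetaminophen and exosomes, and 341 with both drugs. Its ratio of both drugs to acetaminophen was 53.9 (95% interval 28.3 to 118). ABCA7, an ATP-binding cassette lipid transporter, stood at 2.90 and 18.1 CPM in control and caffeine libraries, 4.22 and 8.93 in the acetaminophen libraries without and with exosomes, and 238 with both drugs, a ratio of 56.5 (25.9 to 154). In both genes the library with both drugs lay above each of the other 8. NGFR, the low-affinity neurotrophin receptor, stood at 3.87, 1.88, 2.82 and 8.93 CPM in the same 4 libraries and at 146 with both drugs, a ratio of 52.0 (20.2 to 191). NEU1, the lysosomal sialidase, was abundant throughout, at 116, 135, 138 and 332 CPM, and reached 1269 with both drugs, a ratio of 9.20 (7.98 to 10.7). MKNK2, a kinase that phosphorylates the cap-binding factor eIF4E, stood at 90.0, 78.0, 33.1 and 124 CPM and at 657 with both drugs, while arsenic at 15 µM gave 854. NEU1 and NGFR were therefore highest with both drugs among all 9 libraries, and MKNK2 was not. Others of the 15 leading genes were the protocadherin PCDH17 (18.3 CPM with acetaminophen and 203 with both drugs), the HSP70 family member HSPA2 (16.2 and 174), the sterol-sensing-domain protein DISP3 (1.41 and 89.2) and the erythropoietin receptor EPOR (2.11 and 69.9).

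Of the 725 genes higher on the strictest count, 268 (37.0%) were at least 2-fold higher with both drugs than in each of the other 8 libraries, and in 78 (10.8%) both libraries that held caffeine were at least 2-fold above each of the other 7. Of the 466 lower genes the corresponding numbers were 151 (32.4%) and 39 (8.37%). Some members of the strictest count thus stood out in the combined library alone, some in both caffeine libraries, and most in neither. That count selects genes in which the combined library lies beyond both acetaminophen libraries, which favours both patterns. Their shares over all genes were not counted.

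The genes listed as phosphodiesterases differed in both directions. Among them is PDE6D, which is not a catalytic phosphodiesterase and had log2 ratios of 1.80 as counted and 1.92 with the trend removed. Of 19 compared, 3 were higher and 6 lower with both drugs, against 18.8% and 15.0% of all genes, and 3 and 2 on both scales, with a median log2 ratio of -0.67. PDE11A, which hydrolyses both cyclic AMP and cyclic GMP, stood at 2.90 CPM in control cells, 10.2 with caffeine, 7.04 with acetaminophen, 2.55 with acetaminophen and exosomes, and 33.6 with both drugs, a ratio of 4.78 (2.54 to 10.1). It was the phosphodiesterase that differed from both acetaminophen libraries on the strictest count. PDE3A, an insulin-regulated cyclic AMP phosphodiesterase, stood at 77.4 CPM with acetaminophen, 51.0 with exosomes added and 30.2 with both drugs, and PDE4D, a cyclic AMP-specific one, at 34.5, 31.9 and 12.8. Both were lower as counted but less than 2-fold lower once the trend was removed. PDE4A, PDE5A, PDE7A and PDE8A, each counted as apart, changed the sign of their log2 ratio when acetaminophen with exosomes took the place of acetaminophen. So did PDE1C, PDE3B, PDE9A and PDE10A, which were not counted as apart. Of the adenosine receptors, ADORA1 and ADORA2B were compared but had too few counts to read.

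The purine genes around the receptors gave 5 higher and 2 lower of 14 compared, and 4 and 2 on both scales. XDH, the xanthine dehydrogenase of purine breakdown, stood at 0.968 and 0.704 CPM in the control and acetaminophen libraries, 1.28 with acetaminophen and exosomes, 12.7 with caffeine and 8.13 with both drugs. Its ratio to acetaminophen was 11.5 (1.96 to 467) on 1 count in the acetaminophen library. Both libraries with caffeine lay above all those without. PNP, purine nucleoside phosphorylase, stood at 106 and 102 CPM in the control and caffeine libraries, 45.7 and 58.7 in the acetaminophen libraries, and 223 with both drugs, a ratio of 4.87 (3.79 to 6.35). NT5E, the surface enzyme that makes adenosine, was lower at 8.69 CPM against 31.0 with acetaminophen and 14 with exosomes added. RAPGEF4, a cyclic AMP-activated exchange factor for RAP1, stood at 47.4 CPM in control cells, 26.7 with acetaminophen and 89.3 with exosomes added, but at 1.41 with caffeine and 2.08 with both drugs. The 2 caffeine libraries lay below all 3 of those, by 12.9-fold (ratio 0.0777, 0.0358 to 0.155) in the acetaminophen pair.

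Targets of cyclic AMP in fasting were higher in part. Of 16 compared, 8 were higher and 1 lower, 6 and 1 on both scales, and 4 and none on the strictest count, against 18.8%, 12.1% and 4.09% higher over all genes. The median log2 ratio was 1.28 against acetaminophen, 1.14 with genes at 0 counts held at their bound, and 1.22 against acetaminophen with exosomes. IRS2, the insulin receptor substrate of liver and a CREB target, was not counted in control cells and stood at 5.63 CPM with acetaminophen, 7.65 with exosomes added, 31.2 with caffeine and 97.3 with both drugs. The ratio to acetaminophen was 17.3 (8.71 to 40.3). GADD45B, a stress-inducible gene that fasting also raises, stood at 6.77 CPM in control cells, 5.63 with acetaminophen, 6.38 with exosomes added, 23.3 with caffeine and 80.5 with both drugs. In both genes each caffeine library lay above the control and both acetaminophen libraries, and arsenic at 15 µM was above all of these at 125 and 284 CPM. PCK1, the cytosolic enzyme that commits carbon to gluconeogenesis, had no counts in control, acetaminophen or acetaminophen with exosomes, and stood at 37.2 CPM with caffeine and 4.91 with both drugs, at least 2.33-fold higher than acetaminophen. NR4A3, a nuclear receptor that cyclic AMP induces, had no counts with acetaminophen and stood at 7.94 CPM with both drugs, at least 3.76-fold higher. In the caffeine library NR4A3 stood at 0.821 CPM.

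Of 9 gluconeogenic enzymes compared, 4 were higher and none lower on both scales and 2 were higher on the strictest count, against 12.1% and 4.09% of all genes. Their median log2 ratio was 1.00 against acetaminophen, or 1.38 with the trend removed, but 0.61 and 0.14 against acetaminophen with exosomes. PC, mitochondrial pyruvate carboxylase, stood at 400 CPM in control cells, 756 with caffeine, 149 with acetaminophen, 493 with exosomes added and 1805 with both drugs, a ratio of 12.1 (10.6 to 13.9). PCK2, the mitochondrial form of the PCK1 enzyme, stood at 37.7, 136, 25.3, 44.6 and 355 CPM in the same order, a ratio of 14 (10.1 to 20.1). The acetaminophen library was the lowest of these 5 for both enzymes. MDH1, cytosolic malate dehydrogenase, was higher against acetaminophen (154 and 71.1 CPM) but at 184 CPM with exosomes added, so its direction turned with the comparator.

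CYP1A1, an aryl hydrocarbon receptor target in the same family as the caffeine-clearing enzyme, went opposite ways in the 2 caffeine pairs. It stood at 67.7 CPM in control cells and 237 with caffeine, a ratio of 3.50, but at 39.4 with acetaminophen, 56.1 with exosomes added and 7.94 with both drugs. With both drugs it was 4.97-fold lower than with acetaminophen (ratio 0.201, 0.132 to 0.306). The test of the caffeine by acetaminophen term in edgeR's quasi-likelihood model gave an unadjusted p of 0.00145 and an adjusted p of 1. Of 13 genes of this group compared, 2 were higher and 3 lower. Among the receptor's feedback targets, TIPARP stood at 88.7 CPM with acetaminophen and 59.1 with both drugs and was not apart, and AHRR, at 1.41 and 2.83 CPM, had too few counts to read. The promoter of CYP1A1 is shown because it holds a match to GCGTG, the core of the dioxin response element, in capitals. The match lies 53 to 57 bases before the start in RefSeq (GRCh38.p14, chr15:74725529-74725778, minus strand), printed 5′ to 3′ along the gene. Sequence further from the start was not searched, and whether this match is a working element was not tested.
CYP1A1: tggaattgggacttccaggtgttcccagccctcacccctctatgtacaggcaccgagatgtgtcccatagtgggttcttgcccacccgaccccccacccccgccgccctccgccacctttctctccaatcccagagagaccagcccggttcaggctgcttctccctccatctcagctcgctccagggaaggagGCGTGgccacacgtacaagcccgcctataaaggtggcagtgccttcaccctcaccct
On either strand the letters GCGTG are in the 250 bases before the start of 51.5% of the 11531 compared genes with a promoter in the table, so the match describes the sequence only.

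Genes that metabolise or export acetaminophen did not move as a group. Of 20 compared, 3 were higher and 3 lower on both scales, none differed from both acetaminophen libraries on the strictest count, and the median log2 ratio was -0.31. CYP2E1 was close to absent, with no counts in either acetaminophen library and 0.189 CPM with both drugs. ABCC2, a canalicular exporter of conjugates, stood at 85.9 CPM with acetaminophen, 51.0 with exosomes added and 33.6 with both drugs. ABCC3, a basolateral exporter of glucuronides, stood at 6.33, 15.3 and 25.5 CPM, with 56.2 in the caffeine library. GSTP1, a glutathione transferase, stood at 162 CPM with acetaminophen and 1642 with both drugs, but at 1857 with acetaminophen and exosomes and 1428 in control cells, so of these 4 libraries only acetaminophen was low. The reads of the near-identical UGT1A and SULT1A genes could be split or dropped by the counting and are uncertain.

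The integrated stress response, in which ATF4 and its partners raise amino acid synthesis and transport genes, stood higher with both drugs. Of its 23 genes compared, 13 were higher and 1 lower, 10 and none on both scales, and 6 and none on the strictest count, against 4.09% higher over all genes. The median was 1.47 against acetaminophen, 0.74 with the trend removed, and 0.87 against acetaminophen with exosomes. ASNS, asparagine synthetase, stood at 40.6 CPM in control cells, 80.8 with caffeine, 58.4 with acetaminophen, 80.3 with exosomes added and 396 with both drugs, a ratio of 6.79 (5.45 to 8.56). CHAC1, which degrades glutathione and is induced by ATF4, stood at 10.6, 19.2, 5.63, 11.5 and 83.0 CPM in that order, a ratio of 14.7 (7.41 to 34.3). For both genes the library with both drugs lay above all 4 others. DDIT4, an inhibitor of mTORC1, stood at 44.5, 50.0, 3.52, 25.5 and 138 CPM, a ratio of 39.2 (16.7 to 121) to the lowest of the 5. SESN2, a leucine sensor upstream of mTORC1, stood at 33.9, 68.2, 34.5, 49.7 and 204 CPM. SLC3A2, the heavy chain of amino acid exchangers, stood at 232, 219, 83.0, 158 and 398 CPM. ATF4 itself was higher as counted, at 734 CPM against 236 with acetaminophen and 255 with exosomes added, but its log2 ratio with the trend removed was 0.96, and control cells stood at 520. DDIT3, the pro-apoptotic factor CHOP, stood at 35.8 CPM in control cells, 22.5 with acetaminophen and 63.1 with both drugs. Of these genes arsenic at 15 µM gave still more: 22 of the 23 stood higher there than with both drugs, among them SESN2 at 2191 CPM and CHAC1 at 398. How many of all genes stood higher with that arsenic dose was not counted.

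The promoters of ASNS and CHAC1 are shown because both hold TGATGNAA, the core of the element that C/EBP and ATF4 share, in capitals (TTGCATCA in CHAC1 is the same core on the minus strand). They come from RefSeq (GRCh38.p14) and hold the 250 bases before the start, for ASNS chr7:97872409-97872658 on the minus strand, 61 to 68 bases before the start, and for CHAC1 chr15:40953221-40953470 on the plus strand, 202 to 209 bases before it.
ASNS: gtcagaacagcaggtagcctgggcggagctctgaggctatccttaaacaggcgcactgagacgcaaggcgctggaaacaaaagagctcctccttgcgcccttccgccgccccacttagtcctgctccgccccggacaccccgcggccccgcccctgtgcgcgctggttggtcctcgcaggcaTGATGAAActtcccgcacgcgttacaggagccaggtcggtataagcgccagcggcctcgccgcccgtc
CHAC1: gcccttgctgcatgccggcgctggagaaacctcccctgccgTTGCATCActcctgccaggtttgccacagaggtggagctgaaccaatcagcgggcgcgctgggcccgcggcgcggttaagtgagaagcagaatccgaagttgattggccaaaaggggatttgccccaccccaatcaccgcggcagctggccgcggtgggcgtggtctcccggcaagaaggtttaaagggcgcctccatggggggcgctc
Searched on both strands, the core was in 4 of the 20 integrated stress genes with a promoter in the table (20.0%), in 3 of the 10 that were higher on both scales (30.0%) and in 2.67% of all 11531 compared genes with one.

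Immediate early genes, which encode the first wave of transcription factors and phosphatases after a signal, formed the group with the most members above both acetaminophen libraries. All 28 listed were compared: 15 were higher and 1 lower, 14 and 1 on both scales, and 11 and 1 on the strictest count, against 18.8%, 12.1% and 4.09% higher over all genes. The median log2 ratio was 1.44 against acetaminophen, 1.33 with genes at 0 counts held at their bound, and 1.31 against acetaminophen with exosomes. JUN, a subunit of the AP-1 factor, stood at 68.7 CPM in control cells, 56.1 with caffeine, 24.6 with acetaminophen, 59.9 with exosomes added and 187 with both drugs, a ratio of 7.61 (5.43 to 11). JUNB, another AP-1 subunit, stood at 10.6, 11.8, 0.704, 10.2 and 59.1 CPM, a ratio of 84.0 (15.0 to 3330) on 1 count in the acetaminophen library. In both the combined library was highest of the 5 and acetaminophen lowest. KLF2, a zinc finger factor, stood at 3.87, 17.0, 0.704, 5.10 and 46.3 CPM, also on 1 count with acetaminophen. ATF3, a stress-induced repressor, stood at 8.71, 14.8, 20.4, 12.8 and 62.4 CPM, a ratio of 3.06 (2.09 to 4.63). DUSP1, a nuclear phosphatase of p38 and JNK, stood at 33.9, 28.7, 26.0, 39.5 and 97.7 CPM, a ratio of 3.75 (2.69 to 5.39). FOSB, a FOS family subunit, stood at 9.07 CPM with both drugs and at no more than 1.06 in the other 4. Of the 11 genes higher on the strictest count, all 11 stood above the caffeine and control libraries, and in 7 the acetaminophen library was below control. That count selects genes high with both drugs and low with acetaminophen, which favours both orders, and their share over all genes was not counted. EGR1 and MYC were not apart, at 8.69 and 45.2 CPM with both drugs against 6.33 and 46.4 with acetaminophen. DUSP6, the cytoplasmic phosphatase of ERK and a read-out of ERK signalling, went the other way, at 200, 79.3, 154, 145 and 11.3 CPM, 13.6-fold lower with both drugs (ratio 0.0736, 0.0543 to 0.0983). Arsenic at 15 µM stood above the combined library in 26 of the 28, and the share of all genes in that order was not counted.

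The promoters of 3 of these genes are shown because each holds TGACG, the core of the cyclic AMP response element, in capitals (CGTCA is the same core on the minus strand). In RefSeq (GRCh38.p14) the 250 bases before the start are chr5:172771196-172771445 on the minus strand for DUSP1, chr19:12791236-12791485 on the plus strand for JUNB and chr19:45467746-45467995 on the plus strand for FOSB.
DUSP1: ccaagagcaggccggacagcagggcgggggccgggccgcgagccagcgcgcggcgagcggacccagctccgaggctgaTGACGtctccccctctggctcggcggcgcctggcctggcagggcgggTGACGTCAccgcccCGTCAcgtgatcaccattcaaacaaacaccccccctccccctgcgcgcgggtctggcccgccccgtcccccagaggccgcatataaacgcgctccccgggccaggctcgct
JUNB: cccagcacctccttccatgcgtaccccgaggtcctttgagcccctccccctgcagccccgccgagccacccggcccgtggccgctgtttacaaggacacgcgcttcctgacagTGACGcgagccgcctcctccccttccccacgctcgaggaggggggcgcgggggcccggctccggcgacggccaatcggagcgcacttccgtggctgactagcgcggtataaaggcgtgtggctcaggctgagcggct
FOSB: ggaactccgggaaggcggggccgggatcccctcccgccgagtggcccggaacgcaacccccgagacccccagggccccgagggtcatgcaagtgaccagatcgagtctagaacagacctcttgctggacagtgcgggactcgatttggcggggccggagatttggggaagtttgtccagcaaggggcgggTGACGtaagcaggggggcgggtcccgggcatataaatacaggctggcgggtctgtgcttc
DUSP1 has 4 matches, of which 2 overlap as the full palindrome TGACGTCA, and JUNB and FOSB have 1 each, 133 to 137 and 56 to 60 bases before the start. Searched on both strands, the core was in 12 of the 19 immediate early genes with a promoter in the table (63.2%), in 10 of the 14 of them that were higher on both scales (71.4%) and in 34.1% of all 11531 compared genes with one.

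The NRF2 targets divided. Of 28 glutathione and NRF2 genes compared, 9 were higher and 1 lower on both scales and 4 and 1 on the strictest count, against 12.1% and 4.09% higher over all genes. The median log2 ratio was 0.93 against acetaminophen, 0.10 with genes at 0 counts held at their bound, and 0.06 against acetaminophen with exosomes. HMOX1, the haem-degrading oxygenase, stood at 31.9 CPM in control cells, 82.0 with caffeine, 12.7 with acetaminophen, 20.4 with exosomes added and 240 with both drugs, a ratio of 18.9 (11.9 to 32.0). The 3 arsenic libraries reached 1082 to 5118 CPM. FTL, the ferritin light chain, stood at 4567, 3063, 1776, 4770 and 9888 CPM, and FTH1, the heavy chain, at 321, 302, 166, 298 and 855. Both ferritin genes were lowest with acetaminophen and highest with both drugs among these 5. EPHX1, microsomal epoxide hydrolase, stood at 51.3, 109, 57.7, 166 and 380 CPM. NQO1, the quinone reductase that is a standard NRF2 target, was first among the lower genes by the same ranking: 602 CPM in control cells, 684 with acetaminophen, 371 with exosomes added and 489 to 1116 with arsenic, but 44.8 with caffeine and 11.9 with both drugs. It was 57.5-fold lower with both drugs than with acetaminophen (ratio 0.0174, 0.0133 to 0.0225), and the 2 libraries with caffeine lay below all 7 without.

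A shared caffeine effect was tested across the 9 libraries in an additive model in which caffeine, acetaminophen, exosomes and arsenic each had a term. The 3 arsenic libraries shared 1 term, so the differences between them, and the departures from additivity of the acetaminophen combinations, served as the spread. edgeR also shared the spread across genes, with 32.4 prior degrees of freedom added to those of each gene. edgeR's quasi-likelihood test called 15 of 18237 genes for caffeine (0.0823%) at a Benjamini-Hochberg adjusted p under 0.05, 11 lower (0.0603%) and 4 higher (0.0219%). With no adjustment 1334 had a p under 0.05, and DESeq2 called 51. The calls rest on 4 residual degrees of freedom and none was called without the control library or without acetaminophen with exosomes, while 222 were without arsenic at 5 µM and 153 without arsenic at 15 µM, 6 without the combined library, 4 without acetaminophen, 4 without exosomes and 2 without caffeine alone.

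The 4 higher genes were LRP2, F12, LCT and ABCA7. These higher calls depended on the processing: with DESeq2 size factors 0 genes were called higher and 7 lower. Among protein-coding genes alone the numbers were 0 and 3. GC and length offsets gave 10 higher and 16 lower, and DESeq2 gave 18 and 33. LRP2, the endocytic receptor megalin, stood at 129 CPM with caffeine and 87.7 with both drugs, and at 2.90 to 11.9 in the other 7 libraries, a log2 fold change of 4.19 ± 0.82 (SE, edgeR adjusted p = 0.0233). F12, coagulation factor XII from liver, stood at 66.9 and 24.2 CPM in the caffeine libraries, 0.968 in control cells and 1.41 with acetaminophen (4.96 ± 1.02, edgeR adjusted p = 0.0314). LCT, intestinal lactase, stood at 75.7 and 10.8 CPM, with no counts in control cells and 1 count with acetaminophen (edgeR adjusted p = 0.0386). For each of these genes both caffeine libraries lay above the control and both acetaminophen libraries. ABCA7 had a log2 fold change of 4.58 ± 0.95 (SE, edgeR adjusted p = 0.0346), with its highest level in the combined library.

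The called lower genes included CACNA1H, a T-type calcium channel subunit, which stood at 32.9 CPM in control cells, 21.1 with acetaminophen, 38.3 with exosomes added and 121 to 188 with arsenic, against 0.821 with caffeine and 0.945 with both drugs. Its log2 fold change was -4.87 ± 0.81 (SE, edgeR adjusted p = 0.00724). PRMT6, an arginine methyltransferase, stood at 16.9 CPM with acetaminophen and had 1 count with both drugs, a ratio of 0.0112 (0.000272 to 0.0686, edgeR adjusted p = 0.0124). Its level in control cells was 11.6 CPM and it had no counts with caffeine. GATA1, an erythroid factor, stood at 7.74 CPM with acetaminophen and had no counts with both drugs, at least 13.7-fold lower (edgeR adjusted p = 0.0265), and none with caffeine either. AGR2, a secretory-pathway disulphide isomerase, stood at 115 CPM in control cells, 10.6 with acetaminophen, 47.2 with exosomes added, 1.17 with caffeine and 0.945 with both drugs (edgeR adjusted p = 0.0106). NQO1 (edgeR adjusted p = 0.0217) and RAPGEF4 (edgeR adjusted p = 0.0220) were also called. MLLT11 and VAMP8, a SNARE of late endosomes, had the same order without being called: MLLT11 stood at 62.9, 64.0 and 47.2 CPM without caffeine against 8.68 and 6.42 with it, and VAMP8 at 62.9, 97.1 and 49.7 against 14.3 and 11.7.

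**Figure D2:**
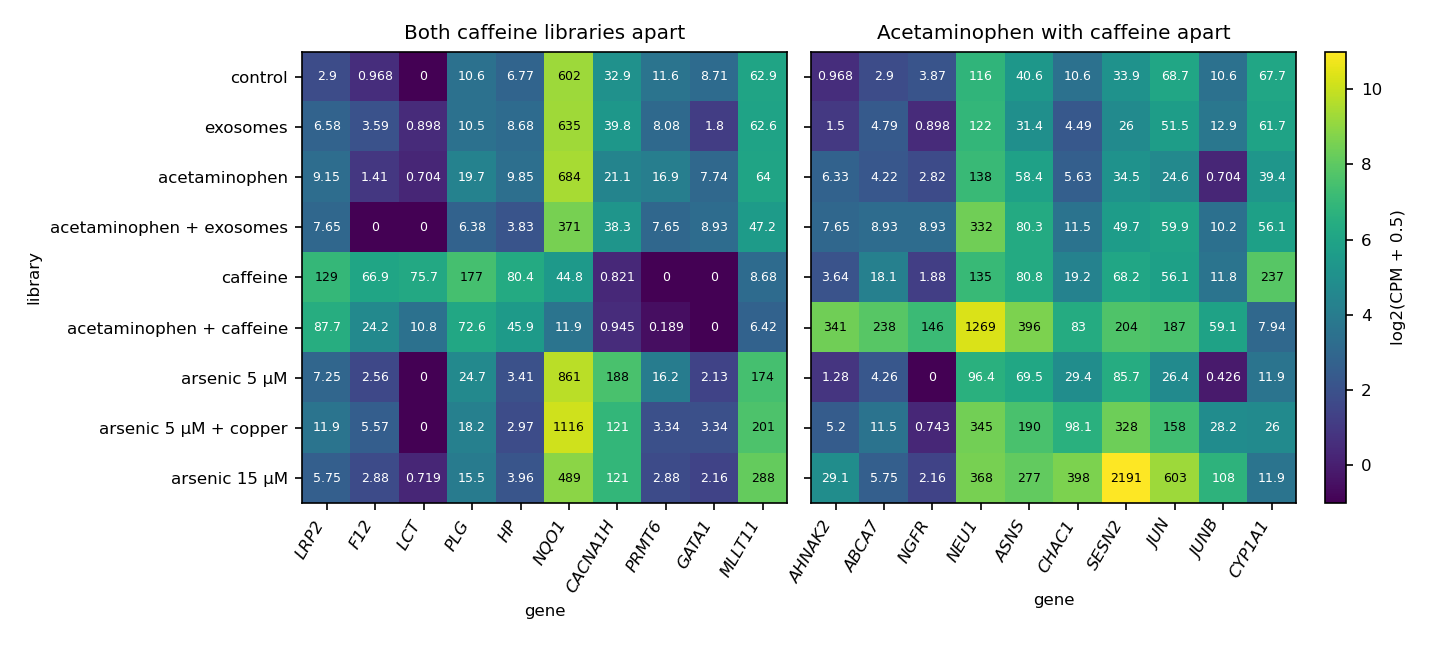
Level of 20 genes (columns) in each of the 9 libraries (rows), with the CPM printed in each cell and the colour giving log2(CPM + 0.5); no error is drawn because each condition is 1 library. In the left panel the caffeine rows stand apart, as for LRP2 at 129 and 87.7 CPM and NQO1 at 44.8 and 11.9, and in the right panel the row of acetaminophen with caffeine, as for AHNAK2 at 341.

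Single plasma proteins of the liver followed the same order, though their lists did not. Of 31 secreted hepatocyte proteins compared, 7 were higher and 4 lower on both scales, against 12.1% and 7.89% of all genes. Their median was 0.43 against acetaminophen and 0.02 against acetaminophen with exosomes. The median of 17 apolipoprotein genes was 0.91, but -0.08 with the trend removed and -0.23 against acetaminophen with exosomes. PLG, plasminogen, stood at 10.6 CPM in control cells, 19.7 with acetaminophen and 6.38 with exosomes added, against 177 with caffeine and 72.6 with both drugs, a ratio of 3.68 (2.51 to 5.62) in the acetaminophen pair. HP, haptoglobin, stood at 6.77, 9.85 and 3.83 CPM without caffeine and at 80.4 and 45.9 with it. APOC3, an apolipoprotein that slows triglyceride clearance, stood at 38.7, 13.4 and 21.7 CPM against 233 and 167. In these 3 genes the caffeine libraries did not overlap the 7 others. The 3 were named by their ratio to acetaminophen, and the share of all genes in this order was not counted. The hepatocyte markers as a sum did not share this order, and ALB was lowest of the 5 libraries with both drugs.

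Some lipid synthesis genes stood higher with both drugs, in several steps. Of 15 fatty acid synthesis genes compared, 6 were higher and 1 lower on both scales and 4 and 1 on the strictest count, against 12.1% and 4.09% higher over all genes, with medians of 0.88 against acetaminophen, 1.22 against acetaminophen with exosomes and 1.16 for caffeine against control. DGAT1, which makes triglyceride, stood at 62.9 CPM in control cells, 152 with caffeine, 72.5 with acetaminophen, 91.8 with exosomes added and 779 with both drugs, a ratio of 10.7 (8.83 to 13.2). ACACB, the acetyl-CoA carboxylase that controls fatty acid entry into mitochondria, stood at 16.4, 59.8, 26.0, 38.3 and 155 CPM. Both genes were higher with caffeine in either background. MLXIPL, the glucose-responsive factor ChREBP, stood at 5.81, 23.8, 1.41, 14 and 48.4 CPM. CPT1A, which carries fatty acids into mitochondria for oxidation, stood at 12.6, 107, 16.9, 17.9 and 124 CPM, a ratio of 7.33 (4.88 to 11.5). TM7SF2, a sterol reductase, stood at 13.5, 49.0, 33.1, 61.2 and 432 CPM, a ratio of 13.1 (9.80 to 17.8). It is from a list of 27 cholesterol synthesis genes with a median of 0.47. Of these, 5 were higher and 2 lower on both scales and 1 and 1 on the strictest count. ACAT2 of that list was lower, with log2 ratios of -1.49 against acetaminophen and -1.43 against acetaminophen with exosomes. The other oxidation genes did not share the order of CPT1A: of 23 PPAR-alpha and oxidation genes compared, 2 were higher and 2 lower on both scales, with a median of 0.07, and ACADM, a medium-chain dehydrogenase, stood at 92.9 CPM with acetaminophen, 24.2 with exosomes added and 15.3 with both drugs. Of 25 ABC and lipid transport genes, 7 were higher and none lower on both scales, and 4 on the strictest count.

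Ion transport and lysosomal genes were higher without a matching difference in the caffeine pair. Of 23 ion pumps and channels compared, 10 were higher and none lower on both scales and 4 on the strictest count, against 12.1% and 4.09% higher over all genes. The median was 1.92 against acetaminophen, 1.27 with genes at 0 counts held at their bound, 1.01 with the trend removed, 0.85 against acetaminophen with exosomes and 0.04 for caffeine against control. ATP1B2, a beta subunit of the sodium pump, stood at 0.968 CPM in control cells, 0.117 with caffeine, 2.11 with acetaminophen, 6.38 with exosomes added and 52.3 with both drugs, a ratio of 24.8 (8.40 to 121). AQP3, a water and glycerol channel, stood at 4.84, 4.81, 4.22, 21.7 and 43.5 CPM. Of 31 autophagy and lysosome genes, 11 were higher and none lower on both scales and 4 on the strictest count, with a median of 0.88. MCOLN1, the lysosomal calcium channel, stood at 24.2, 25.9, 7.04, 21.7 and 88.8 CPM, a ratio of 12.6 (6.80 to 26.5). MAP1LC3B, an autophagosome coat protein, stood at 13.5, 16, 16.2, 29.3 and 77.5 CPM. In both the combined library was highest of the 5. CTSD, a lysosomal protease, stood at 12.7 CPM with acetaminophen and 138 with both drugs, but at 121 with exosomes added and 138 in control cells.

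Signalling and matrix genes gave smaller groups. Of 30 Notch and guidance genes compared, 7 were higher and 2 lower on both scales and 5 and 2 on the strictest count, against 12.1% and 7.89%, and 4.09% and 2.63%, over all genes. The same shares apply to the matrix and p53 counts that follow. NOTCH1 stood at 35.8 CPM in control cells, 38.9 with caffeine, 21.8 with acetaminophen, 80.3 with exosomes added and 363 with both drugs, a ratio of 16.6 (11.7 to 24.6). Its ligand DLL4 stood at 2.90, 2.70, 3.52, 10.2 and 61.0 CPM, and the guidance cue SLIT2 at 2.90, 27.2, 53.5, 26.8 and 301. Of 30 extracellular matrix and TGF-beta genes, 7 were higher and none lower on both scales and 6 on the strictest count, among them the collagen chain COL6A1 at 9.68, 35.0, 10.6, 15.3 and 123 CPM. Of 24 p53 targets, 8 were higher and 2 lower on both scales. CDKN1A, the p21 cell cycle inhibitor, stood at 9.68, 24.2, 9.85, 37.0 and 106 CPM, a ratio of 10.8 (6.36 to 19.8). MDM2 and AEN, 2 other p53 targets, were lower: AEN stood at 62.6 CPM with acetaminophen and 15.3 with both drugs, and MDM2 at 54.9 and 22.9.

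Ribosome assembly genes stood lower with both drugs. Of 31 compared, 2 were higher and 16 lower, 1 and 12 on both scales, and none and 8 on the strictest count, against 2.63% lower over all genes, with a median of -1.18 against acetaminophen, -0.84 against acetaminophen with exosomes and -0.61 for caffeine against control. GNL3, nucleostemin, stood at 49.3 CPM in control cells, 31.0 with caffeine, 117 with acetaminophen, 49.7 with exosomes added and 13.2 with both drugs, 8.83-fold lower (ratio 0.113, 0.0844 to 0.151). UTP18, a part of the small-subunit processome, stood at 38.7, 33.3, 68.3, 21.7 and 6.80 CPM, 10.0-fold lower. DKC1, the pseudouridine synthase of the nucleolus, stood at 159, 51.3, 126, 57.4 and 23.8 CPM. In all 3 the combined library was lowest of the 5, and acetaminophen lay above control in GNL3 and UTP18 but not in DKC1.

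The heat shock genes split between the 2 acetaminophen libraries. Of 26 compared, 6 were higher and 9 lower on both scales and 4 and 3 on the strictest count. All genes gave 12.1% and 7.89%, and 4.09% and 2.63%. The median was -1.17 against acetaminophen but 0.01 against acetaminophen with exosomes. HSPH1, an HSP110 chaperone, stood at 86.1 CPM in control cells, 49.4 with caffeine, 207 with acetaminophen, 82.9 with exosomes added and 22.9 with both drugs, 9.05-fold lower. HSPD1, the mitochondrial chaperonin, stood at 856, 343, 709, 516 and 207 CPM, 3.42-fold lower. DNAJB1, a cytosolic HSP40, was higher, at 168, 131, 70.4, 153 and 430 CPM, a ratio of 6.10 (4.99 to 7.53). The chaperones were therefore not of 1 direction. Arsenic at 15 µM stood above the combined library in 25 of the 26, a share that was not counted over all genes. HSPA1A stood at 9.85 and 69.4 CPM, but its reads are shared with the near-identical HSPA1B.

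Single chemokines, some epithelial progenitor markers and some genes of replication, checkpoints and mitosis were also lower than with acetaminophen. CXCL1, a neutrophil chemokine, stood at 22.3 CPM in control cells, 16.5 with caffeine, 33.8 with acetaminophen, 17.9 with exosomes added and 1.51 with both drugs, 22.3-fold lower (ratio 0.0448, 0.0183 to 0.0954). CXCL8 stood at 26.1, 20.1, 50.0, 24.2 and 2.27 CPM, and CCL20 at 271, 146, 381, 126 and 24.9. For all 3 the library with both drugs was lowest of the 5. These 3 are from a list of 24 NF-kB and inflammatory genes, of which 2 were higher and 7 lower on both scales and 1 and 4 on the strictest count. The shares over all genes were 12.1% higher and 7.89% lower on both scales, and 4.09% and 2.63% on the strictest count. They apply to the other counts of this paragraph too. The list's median was 0.33 as counted and -0.39 with the trend removed, and SAA1, an acute phase protein, was higher at 14.9 CPM against none with acetaminophen. Of 14 biliary and progenitor genes, 1 was higher and 4 lower on both scales, and the 4 were lower than both acetaminophen libraries. KRT19, a keratin of bile ducts, stood at 326 CPM in control cells, 69.2 with caffeine, 168 with acetaminophen, 212 with exosomes added and 71.2 with both drugs, so both caffeine libraries were low, while EPCAM stood at 36.8, 34.4, 59.8, 25.5 and 9.26. CLDN4, an epithelial claudin, went the other way, with log2 ratios to acetaminophen of 4.70 as counted and 3.91 with the trend removed. Of 35 DNA replication genes, none was higher and 10 were lower on both scales, and 2 were lower on the strictest count. RRM1, a ribonucleotide reductase subunit, stood at 70.6, 72.5, 305, 107 and 62.7 CPM. Its level with both drugs was near that of control cells, and acetaminophen stood above. Of 22 DNA damage checkpoint genes 6 were lower and 1 higher on both scales, with a median of -0.82 against acetaminophen and -0.23 against acetaminophen with exosomes, and of 30 mitosis genes 4 were lower and 1 higher, with medians of -0.81 and 0.07. On the strictest count 1 mitosis gene was lower and 1 higher.

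**Figure D3:**
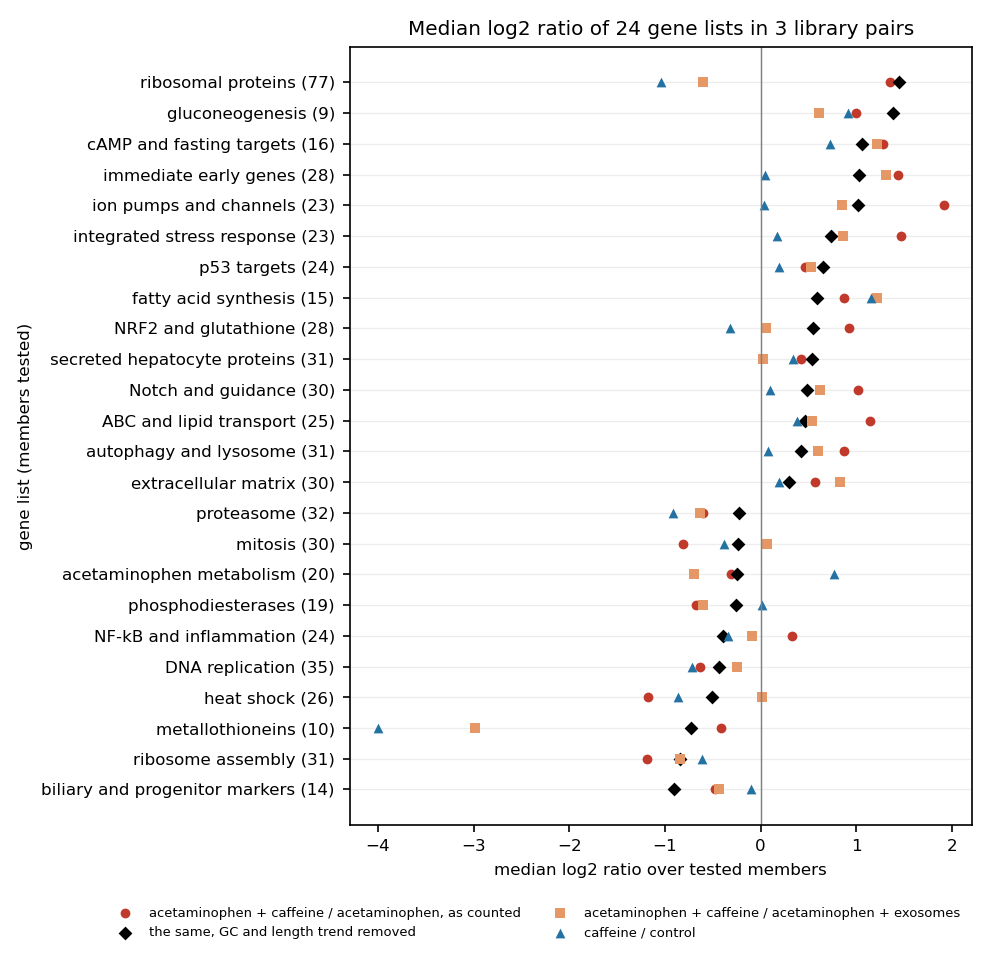
Median log2 ratio (horizontal axis) of 24 gene lists (number of members compared in brackets) for both drugs against acetaminophen as counted (circles) and with the GC and length trend removed (diamonds), against acetaminophen with exosomes (squares), and for caffeine against control (triangles); no error is drawn. Immediate early genes lie at 1.44 and 1.31 against the 2 acetaminophen libraries, whereas ribosomal proteins lie at 1.36 against acetaminophen and at -0.60 against acetaminophen with exosomes.

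In some groups the ratio to acetaminophen was not matched by the ratio to acetaminophen with exosomes. Of 77 ribosomal protein genes compared, 48 were higher and 1 lower with both drugs, and 46 and none on both scales, but only 1 was higher on the strictest count. The shares higher over all genes were 18.8%, 12.1% and 4.09%. Their median was 1.36 against acetaminophen and -0.60 against acetaminophen with exosomes. RPS19 stood at 731 CPM in control cells, 135 with caffeine, 26.0 with acetaminophen, 1401 with exosomes added and 236 with both drugs. Replication histones had a median of 1.10 against acetaminophen and -0.41 against acetaminophen with exosomes. Like the heat shock genes, these lists turned the sign of their median with the acetaminophen library used. Ribosomal proteins and histones have near-identical copies and pseudogenes, so their reads are uncertain. Of 15 mitochondrially encoded transcripts, 10 were higher and none lower on both scales and 2 on the strictest count. Unlike the groups above, their median kept its direction, at 1.26 against acetaminophen and 0.63 against acetaminophen with exosomes, or 1.84 and 1.69 with the trend removed. Among small nucleolar RNAs, 46 of 161 were lower on both scales and 10 higher, against 7.89% and 12.1% of all genes. SNORD83A stood at 1349 CPM in control cells, 7511 with acetaminophen, 635 with exosomes added and 180 with both drugs.

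Caffeine without acetaminophen was compared with control cells by the same rules, a pair that shares no library with the first. It counted 3689 genes as apart (20.2%), 2115 higher (11.6%) and 1574 lower (8.63%), and 2728 on both scales (15.4%), 1481 higher (8.35%) and 1247 lower (7.03%). Of the 2155 genes higher with both drugs on both scales, 378 were also higher with caffeine over control, which is 17.5% of the former and 25.5% of the latter. Of the 1400 lower genes 214 were lower in both pairs, 15.3% and 17.2% of the 2 lists. Another 123 were higher in the acetaminophen pair and lower in the caffeine pair, and 71 the reverse. Across the 9397 genes whose mean over the libraries reached 10 CPM, which are not independent replicates, the 2 log2 ratios had a correlation of 0.117 (Pearson) and 0.101 (Spearman), and 0.237 and 0.224 with the trend removed. The difference between the ratios was tested as a caffeine by acetaminophen term: edgeR's quasi-likelihood test called none of 18237 genes (0.0%), with 198 at an unadjusted p under 0.05, and DESeq2 also called none. By counting error alone the 2 ratios were apart in 5918 genes (32.5%), higher with acetaminophen present in 2799 (15.3%) and lower in 3119 (17.1%).

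**Figure D4:**
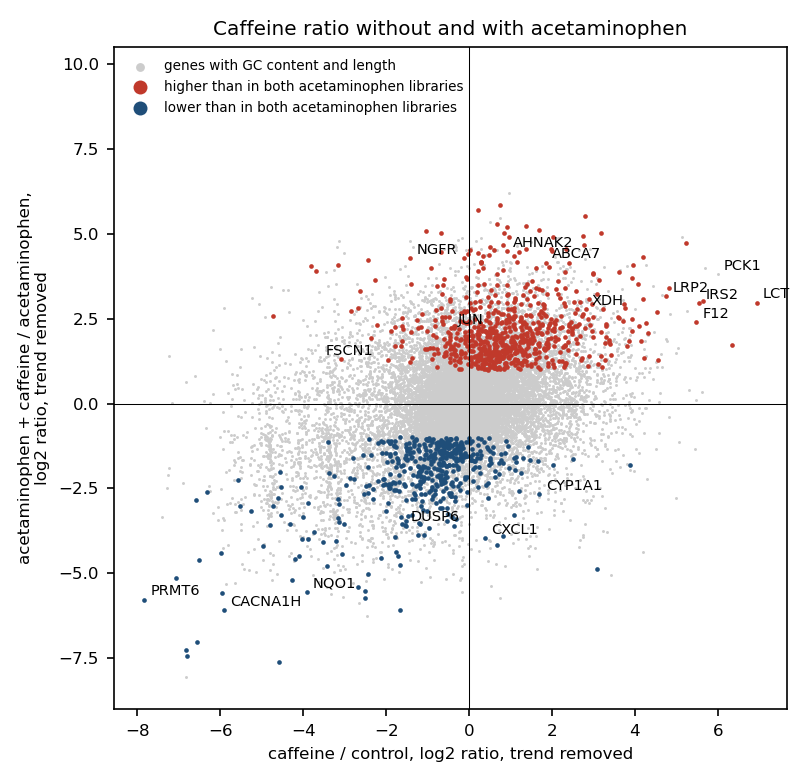
Log2 ratio of caffeine to control (horizontal axis) against log2 ratio of both drugs to acetaminophen (vertical axis), both with the GC and length trend removed, 1 point a gene, with red and dark blue for genes higher or lower than in both acetaminophen libraries. LRP2 and IRS2 lie at the upper right, NQO1 and PRMT6 at the lower left and CYP1A1 at the lower right, and the correlation over the 9397 better detected genes was 0.237.

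The genes of these groups can be placed by where they stood in the caffeine pair. LRP2, IRS2, CPT1A, PCK2 and APOC3 were higher with caffeine in both pairs, with ratios of both drugs to acetaminophen of 9.58, 17.3, 7.33, 14 and 12.5. ASNS, NEU1, JUN and NOTCH1 stood at 1.99, 1.16, 0.816 and 1.09 as ratios of caffeine to control, and at 6.79, 9.20, 7.61 and 16.6 with acetaminophen present. NQO1, DKC1 and KRT19 were lower in both pairs, at 0.0745, 0.323 and 0.212 of control with caffeine alone and at 0.0174, 0.189 and 0.425 of acetaminophen with both drugs. CYP1A1 and FSCN1, an actin-bundling protein, went opposite ways: FSCN1 stood at 106 CPM in control cells, 10.7 with caffeine, 37.3 with acetaminophen, 117 with exosomes added and 248 with both drugs. The caffeine by acetaminophen term rests on the combined library alone. Its fit left 3 residual degrees of freedom a gene, and the spread was shared fully across genes. A p that misses its threshold therefore does not show that the pairs were alike.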

How the data were processed

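Total RNA of HuH-7 cells was extracted with mirVana, depleted with RiboMinus and made into libraries (Ion Total RNA-Seq Kit v2) for the Ion Torrent Proton, per the labels' protocols. The deposited values are raw counts of reads on each Ensembl gene, 1 file a library, with TopHat2 2.0.13, HTSeq 0.6.1 and GRCh37 named in the submitters' processing notes. Annotation release and strand setting: not given in the sources used here. Antisense and overlapping genes are therefore uncertain. The summary lines of the files (reads on no gene or several), 42.3% to 70.3% of all reads, were left out.

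Counts were scaled by TMM (edgeR 4.0.16, R 4.3.3), and genes that reached 1 CPM in 2 or more libraries were kept. Ratios have exact binomial (Clopper-Pearson) 95% intervals, and 0.5 counts were added before the 2-fold rule. Trends with transcript GC content and length (natural splines of 5 degrees of freedom per library) came from GENCODE 29. The caffeine term and the caffeine by acetaminophen term were tested over all 9 libraries with edgeR's quasi-likelihood test and, as an alternative, DESeq2 1.42.0, with scripts tested on simulated data. Nothing says that the libraries came from separate cultures, so p-values measure the spread between libraries only.

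The members and gene lists were chosen with earlier results of these data known. Named are the 15 highest and 15 lowest genes of the strictest count, up to 4 members of each list on both scales, all members of the adenosine, phosphodiesterase, CYP1 and acetaminophen lists, genes called by a test, and the 10 genes whose ratios in the 2 caffeine pairs differed most by interval. ATF3, ATF4, DDIT3, DUSP1, FOSB, EGR1, MYC, EPHX1, MDM2, HSPD1 and HSPA1A were chosen after their values were seen, as were the promoters shown. Sequences are RefSeq's (GRCh38.p14). Alternatives were other scalings, filters, subsets, comparators and designs. Some genes that the rule names are not reported here.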

Additional observations from a re-analysis of the deposited data

Results flagged for a closer look

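The 8 genes of this paragraph were chosen for a large difference between the 2 caffeine ratios, by interval. In each the ratio of both drugs to acetaminophen lay above 1 and the ratio of caffeine to control below it. They are not the only ones: 123 genes were higher in the first pair and lower in the second on both scales. The log2 difference between these ratios was 6.71 for HSPB1, 6.34 for ROMO1, 6.28 for TMSB10, 6.22 for RPS9, 6.04 for FSCN1, 5.60 for RPS19, 5.18 for SOD1 and 4.78 for FLNA. None was called for the caffeine by acetaminophen term, and each pair is 1 library a side. TMSB10, an actin-sequestering protein, stood at 1478 CPM in control cells, 121 with caffeine, 82.3 with acetaminophen, 1798 with exosomes added and 528 with both drugs. SOD1, the cytosolic superoxide dismutase, stood at 432, 32.4, 47.2, 565 and 129 CPM, and HSPB1, a small heat shock protein, at 170, 21.5, 2.11, 48.5 and 32.5. In these 3, caffeine and acetaminophen alone each lay below control. FSCN1 and FLNA, another actin-binding protein, differ from them in that the library with both drugs was the highest of the 5, at 248 and 1642 CPM. Against acetaminophen with exosomes the log2 ratio was below 0 for TMSB10 (-1.77), ROMO1 (-1.81), HSPB1 (-0.59), RPS9 (-0.36), RPS19 (-2.57) and SOD1 (-2.13).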

How the results depend on the processing

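No paired analysis was possible because each condition has 1 library. Genes apart numbered 6155, and 6156 with DESeq2 size factors, 6212 with total counts, 6189 with no filter, 5421 among protein-coding genes, 5523 with libraries thinned to equal depth and 4574 at a mean of at least 10 CPM. With the trend removed there were 4125, of which 1630 were lower. At 4-fold there were 2477, 1654 higher and 823 lower, and against acetaminophen with exosomes 3890, of which 2063 were higher. With DESeq2 size factors, chosen after seeing the data, both scales gave 3556, both acetaminophen libraries 1142 and caffeine against control 3529. The additive caffeine term called 15 genes, 7 with DESeq2 size factors, 49 with no filter, 3 among protein-coding genes, 26 with GC and length offsets, 292 in 6 libraries without arsenic, 51 in DESeq2 and 0 to 222 when 1 library was left out. The cause was not tested. The interaction term called 0 throughout.

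Of 327 named values, 1, 134 and 163 moved by more than counting error with DESeq2 size factors, with the trend removed and with acetaminophen with exosomes as comparator. Counting small ratios too, 14 signs turned with the trend removed and 56 with that comparator. Genes named for being apart on both scales could not turn with the trend removed, because that rule requires the same sign. Of genes counted as apart and list medians of at least 1 in size, none turned with the trend removed and 37 with that comparator, to these log2 ratios: heat shock list 0.0138, histone list -0.41, ribosomal protein list -0.60, ADA -0.15, SLC29A1 -0.0113, PDE5A 0.30, PDE4A -0.60, PDE7A 0.34, PDE8A 0.27, MDH1 -0.26, AHR 0.13, GSTP1 -0.18, HIST1H2BD -0.49, HIST1H2BC -0.032, RPS9 -0.36, RPS27 -1.63, PSMD8 -0.34, PSMB4 -1.10, PSME3 0.28, NDUFA4 -1.61, COX6C -1.47, MT-RNR1 -0.70, SLC25A15 0.30, ACTB -0.35, BAD -0.0915, RMRP -0.74, SNHG1 0.45, SNHG3 -0.57, TMSB10 -1.77, S100A9 -2.06, ROMO1 -1.81, HSPB1 -0.59, RPS19 -2.57, SOD1 -2.13, SCARNA17 -0.23, SNORD7 1.60 and RF00154 0.61. At 5 CPM the acetaminophen library held 7 counts (1.98 to 10.2 CPM), so ratios of genes at that level have wide intervals.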

Other observations

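Translation and sugar metabolism held single genes with large differences. Of 28 translation factors compared, 3 were higher and 3 lower on both scales, against 12.1% and 7.89% of all genes, with a median log2 ratio of -0.21. Of 25 glycolysis genes 9 were higher and 1 lower as counted and 4 and 1 on both scales, with a median of 0.92 against acetaminophen and 0.26 against acetaminophen with exosomes. EEF2, the elongation factor that moves the ribosome along, stood at 1875 CPM in control cells, 3255 with caffeine, 632 with acetaminophen, 1613 with exosomes added and 8397 with both drugs, a ratio of 13.3 (12.4 to 14.2). EIF1AX, an initiation factor, stood at 124, 69.3, 208, 113 and 43.8 CPM, 4.74-fold lower with both drugs than with acetaminophen. ALDOC, an aldolase, stood at 47.4, 138, 47.2, 76.5 and 356 CPM, a ratio of 7.55 (5.92 to 9.79), while LDHA, lactate dehydrogenase A, stood at 694, 530, 732, 375 and 221 CPM.

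Clotting genes also parted: of 22 compared, 5 were higher and 3 lower on both scales, against 12.1% and 7.89% of all genes. F10, coagulation factor X, stood at 38.7 CPM in control cells, 104 with caffeine, 21.8 with acetaminophen, 34.4 with exosomes added and 129 with both drugs. TFPI, the inhibitor of the tissue factor pathway, stood at 122, 82.6, 79.5, 71.4 and 14.6 CPM, so the procoagulant gene was highest and its inhibitor lowest of the 5 with both drugs. KCNQ1OT1, a long antisense RNA of the imprinted KCNQ1 locus whose reads cannot be told from those of its partner without strand, stood at 82.2, 369, 110, 128 and 662 CPM. Metallothionein genes gave few counts: MT1E stood at 39.7, 0.704, 8.45, 17.9 and 1.70 CPM, low in both caffeine libraries, with reads shared among near-identical copies.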
